A study of Homo sapiens and Mus musculus with 27 samples.

Results

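MKL1, also called MRTF-A and encoded in the mouse by Mrtfa, is a coactivator of serum response factor (SRF). It is held in the cytoplasm by monomeric actin, and it enters the nucleus when actin polymerises, where it binds SRF at genes of the actin cytoskeleton, cell adhesion and muscle contraction. SRF is shared with the ternary complex factors (Elk1, Elk3 and Elk4), which bring it to growth factor and immediate early genes instead. A constitutively active form of MKL1 no longer depends on the actin signal, and in epithelial cells MRTF activity is known for its link to myofibroblast and smooth muscle gene expression.

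The comparison described here is of 4T1 mouse mammary carcinoma cells that overexpressed constitutively active MKL1 (caMKL1) with 4T1 control cells, and it rests on 6 of the 27 samples of the series, 3 in each group. They were assigned to their groups by their labels and table columns. The same table holds 3 libraries of 4T1 cells that overexpressed MKL1, and the series also has caMKL1 and control libraries of LM2, a lung-seeking line derived from human MDA-MB-231 breast cancer cells. The series' title names the MKL1/SRF pathway as a target in breast cancer metastasis. The labels state neither the construct's sequence, species and promoter nor whether the cells were a pool or 1 clone, and they do not say what the control cells carried. The genotype labels of the caMKL1 replicates run caMKL1, caMKL2 and caMKL3, while their titles and treatment labels all give caMKL1. Nothing says whether the replicates came from separate cultures, so the p-values measure only the spread between these samples, which may be technical.

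The 6 libraries were made from polyA-selected RNA and held 24035537 to 29370432 counts. Mitochondrially encoded genes took 2.85% to 2.99% of the counts in control and 2.60% to 2.67% in caMKL1 libraries. On the first principal component of the 500 most variable genes, which carried 91.87% of their variance over all 9 libraries of 4T1 cells, the control, MKL1 and caMKL1 libraries formed 3 separate groups with no overlap. The biological coefficient of variation was 0.0345, so even small differences passed the test. All 12 epithelial markers had counts in every group, and their summed level was 2899 to 3013 CPM in control and 5948 to 6311 CPM in caMKL1 libraries, where CPM is the count scaled to a common library size by TMM (counts per 1000000). Of 8 leukocyte markers, Cd3e was at 0 counts in both groups, Ptprc had 2 counts over the control libraries and 1 over the caMKL1 libraries, and the summed level ran from 6.46 to 6.82 CPM in control and from 55.8 to 64.1 CPM in caMKL1 libraries, of which Cd68 took 6.25 and 60.7 CPM on average. The summed level of 10 fibroblast markers was 50.4 to 55.3 CPM in control and 50.3 to 52.2 CPM with caMKL1, with Lum at 0 counts in both. Emcn, of 6 endothelial markers, was also at 0 in both, and their sum was 0.707 to 0.803 CPM in control and 7.49 to 7.75 CPM with caMKL1, of which Vwf took 0.0467 and 6.84 CPM. The part of other cells in the results was not tested.

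The construct's own gene was measured first. Mrtfa (chr15:81012281-81190757 on the minus strand, GRCm38) stood at 41.6, 37.00 and 39.02 CPM in the control libraries and at 596, 597 and 679 CPM in the caMKL1 libraries, a 15.9-fold rise (fitted log2 ratio 4.00 ± 0.049 SE, edgeR adjusted p = 6.8e-27). The caMKL1 libraries all lay above the control libraries, as their label states. In the MKL1 libraries the same gene reached 2087, 2147 and 2199 CPM, so the caMKL1 cells held less Mrtfa-aligned RNA than the MKL1 cells (log2 ratio -1.78, adjusted p = 2.0e-21). Without the constructs' sequences it is not known how much of them these counts take in. Mrtfb, the second MRTF of these cells, was at 78.3 ± 2.38 CPM (mean ± SD, n = 3, here and below) in control and 83.9 ± 0.898 CPM in caMKL1 libraries, a log2 ratio of 0.10 (adjusted p = 0.025) that was -0.08 when libraries were scaled by their totals and did not pass the test without control replicate 2 or caMKL1 replicate 3 (adjusted p = 0.142 and 0.0585). Srf itself (chr17:46548329-46556175 on the minus strand) rose 3.85-fold, from 39.6, 33.7 and 35.6 to 139, 139.7 and 140.2 CPM, with no overlap between the groups (log2 ratio 1.95 ± 0.048, adjusted p = 7.5e-21).

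Of 9 tested genes of MRTF, SRF, the ternary complex factors and their cofactors, 6 rose and 3 fell at an adjusted p under 0.05, where 36.2% of all genes tested rose and 35.8% fell (4 and 3 under library totals, a scaling described below). The factors that compete with MRTF for SRF moved in different directions. Elk1 rose from 26.9 ± 1.95 CPM to 108 ± 1.33 CPM (log2 ratio 2.01, adjusted p = 2.7e-21), whereas Elk3 fell from 182 ± 3.46 CPM to 102 ± 0.453 CPM (log2 ratio -0.84, adjusted p = 1.0e-16) and Elk4 had a log2 ratio of 0.16 (adjusted p = 6.1e-04) that was -0.03 under library totals. Phactr1, an actin-binding protein with RPEL motifs like those of MKL1, fell 4.33-fold from 8.36 to 1.92 CPM (adjusted p = 1.4e-13). Scai, a repressor of MRTF activity, fell by 0.30 on the log2 scale (adjusted p = 4.1e-04), and Fhl2, an SRF cofactor, rose by 0.69 (adjusted p = 3.2e-13). Myocd, the smooth muscle member of the MRTF family, was at 0 counts in all groups.

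Across the transcriptome, 16297 of 55367 gene names passed the low-count filter. Of these, 5900 were higher and 5841 lower with caMKL1 at an adjusted p under 0.05, which is 36.2% and 35.8% of the genes tested. Counts of list members below are to be read against these shares. A change of at least 2-fold was called upward in 2178 genes (13.4%) and downward in 1421 genes (8.72%). The large changes lay on the upper side, since 331 genes rose at least 16-fold and 40 fell that far, and 69 of the genes called higher had no count in any control library against 6 of those called lower with no count in any caMKL1 library. The median log2 ratio over all genes was -0.02 with TMM scaling and -0.21 when libraries were scaled by their totals, under which 4528 genes were called higher and 7580 lower. Changes below are relative to the TMM scale, and counts under library totals are added for lists with small medians. Fitted log2 ratios use a prior count, so for genes with 0 to 3 control counts a bound or a counting interval is given in place of the fitted value.

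**Figure D1:**
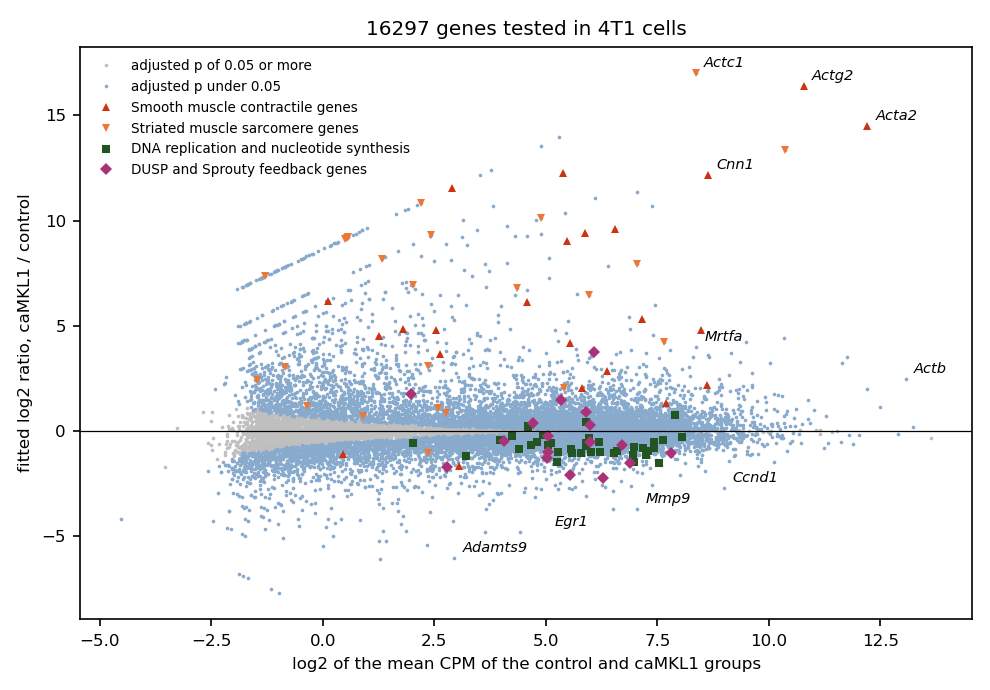
Fitted log2 ratio of caMKL1 over control against the log2 mean CPM of both groups for the 16297 genes tested, with members of 4 gene lists marked. Muscle genes extend far above the cloud up to Actc1 and Actg2, while the replication genes sit mostly below 0; the diagonal rows of points at the upper left are genes with 0 to 3 control counts, whose fitted value depends on the prior count.

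The 4 muscle actins went from traces to major transcripts. Acta2, smooth muscle alpha-actin (chr19:34241090-34255590 on the minus strand), was at 0.459, 0.225 and 0.565 CPM in the control libraries, 34 counts in all, and at 9175, 9371 and 9721 CPM in the caMKL1 libraries. The fitted log2 ratio was 14.49 ± 0.066 (adjusted p = 3.1e-35). Actg2, the gamma actin of visceral smooth muscle, had 3 counts over the control libraries and reached 3496, 3456 and 3571 CPM, a ratio of 98005-fold (exact 95% counting interval 33535 to 475237). In both genes the groups were separated by several orders of magnitude. In bulk RNA, more cells that express a gene and more RNA per cell cannot be told apart. Acta1, skeletal alpha-actin, rose from 0.229, 0.321 and 0.188 to 2633, 2638 and 2653 CPM (log2 ratio 13.34 ± 0.066, adjusted p = 1.4e-34). Actc1, cardiac alpha-actin, had 0 control counts and 662, 631 and 676 CPM with caMKL1, at least 18317-fold higher when the control group is set to a floor of 3 counts in all. The cytoplasmic actins, already abundant, rose less: Actb from 2594 ± 109.6 CPM to 14542 ± 388 CPM (log2 ratio 2.49, adjusted p = 5.6e-27) and Actg1 from 614 ± 35.9 CPM to 5744 ± 59.1 CPM (log2 ratio 3.23, adjusted p = 4.4e-28).

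Per unit of gene length, the muscle actins made up 0.0312 ± 0.0039% of the summed level of the 6 actin genes in control and 53.3 ± 0.14% in caMKL1 libraries (RPKM scale, SD, n = 3). Acta2 alone took 26.4 ± 0.24% of it with caMKL1, and Actb fell from 80.7 ± 0.26% to 33.4 ± 0.26% of the total although its own level rose. On this scale the muscle actins together thus outweighed Actb and Actg1 in the caMKL1 libraries, and in the control libraries they were a trace. The actin genes are near-identical in their coding parts, and featureCounts by default leaves out reads that align to several places, so the level of each actin is uncertain to that extent.

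Of 23 smooth muscle contractile genes tested, 21 rose and 2 fell, with a median log2 ratio of 4.85 against -0.02 for all genes, and each of these changes was at least 2-fold. Cnn1, the actin-binding calponin of differentiated smooth muscle (chr9:22099216-22109630 on the plus strand), went from 0.153, 0.161 and 0.188 to 790.4, 796 and 799 CPM (log2 ratio 12.18 ± 0.068, adjusted p = 1.4e-33). Myh11, the smooth muscle myosin heavy chain (chr16:14194535-14291372 on the minus strand), went from 0.229, 0.193 and 0.301 to 182, 189 and 189 CPM (log2 ratio 9.58 ± 0.093, adjusted p = 1.1e-28). Both genes were near the detection limit in every control library and well expressed in every caMKL1 library. Lmod1, an actin nucleator of smooth muscle, rose from 0.165 to 117 CPM, Synpo2 (an actin-bundling protein of muscle) from 0.678 to 46.9 CPM, and Des, the muscle intermediate filament protein desmin, from 0.231 to 6.696 CPM. Kcnmb1, the beta subunit of the smooth muscle BK channel, had no control count and was at least 418-fold higher at 15.1, 14.4 and 15.4 CPM.

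Mcam, an adhesion receptor of vascular smooth muscle and endothelium, rose 27.98-fold from 24.6 ± 0.749 CPM to 689 ± 6.67 CPM (adjusted p = 5.2e-31), and the small heat shock protein gene Hspb6 rose 40.3-fold to 278 CPM (adjusted p = 3.7e-27). Smtn, already at 117 CPM in control cells, rose 2.501-fold. The response of the smooth muscle genes was uneven in its end level: Tagln, which with Acta2 and Cnn1 is a standard SRF target, reached 11.7, 10.4 and 11.5 CPM from 0.191, 0.578 and 0.377 CPM (log2 ratio 4.82, adjusted p = 3.8e-16). Tagln is named here after its values were seen. The members that fell were Itga8 (12.6 ± 1.45 CPM to 4.03 ± 0.511 CPM, adjusted p = 3.4e-12) and Smtnl2 (1.84 to 0.881 CPM, adjusted p = 6.5e-04), also named after their values were seen.

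**Figure D2:**
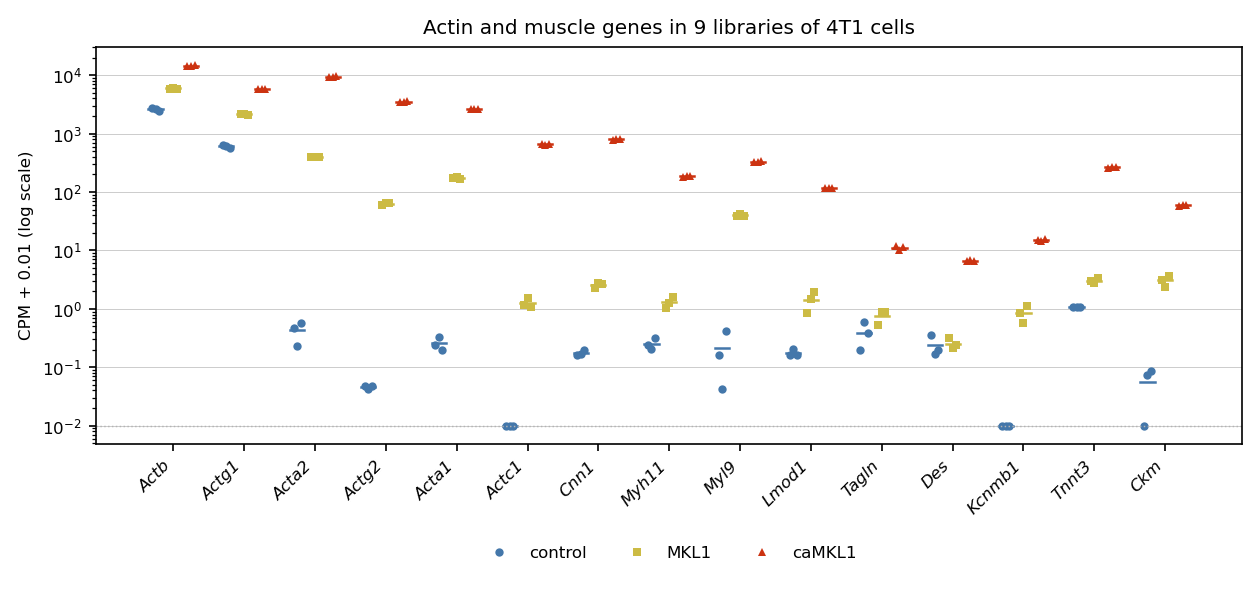
CPM + 0.01 on a log axis for 15 actin and muscle genes in each of the 3 control (circles), 3 MKL1 (squares) and 3 caMKL1 libraries (triangles) of 4T1 cells, with bars at the group means. For each gene the caMKL1 libraries lie above all others, and points on the dotted line at 0.01 are libraries with no count, as for Actc1 and Kcnmb1 in control.

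Genes of the striated muscle sarcomere, the contractile unit of skeletal and heart muscle, rose as well: 23 of 25 tested members were higher and 2 lower, with a median log2 ratio of 6.80, or 6.29 with the 6 members that had no control count set at their bound. Tnnt3, fast skeletal troponin T, went from 1.07, 1.06 and 1.05 to 255, 268 and 267 CPM (log2 ratio 7.95 ± 0.067, adjusted p = 7.4e-30). Ckm, the muscle creatine kinase, went from 0, 0.0642 and 0.0753 to 58.1, 59.2 and 59.4 CPM (adjusted p = 8.6e-24). Neither group of libraries came near the other for these genes. Myom1, the M-band protein myomesin, rose from 1.42 to 123 CPM and Nexn, an actin-binding Z-disc protein, from 20.2 to 381 CPM. The other 13 of the 38 listed genes did not pass the low-count filter. The heart myosin heavy chain Myh6 reached 9.198 ± 0.192 CPM, from 0 counts. The cardiac troponin gene Tnnt2, at 125 ± 3.07 CPM in control, fell to 57.01 ± 0.704 CPM (log2 ratio -1.13, adjusted p = 9.0e-19) while the fast skeletal Tnnt3 rose, and Tnnc1 fell from 6.88 to 3.32 CPM. Tnnt2, Tnnc1 and Myh6 are named after their values were seen.

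The 10 largest rises were taken among genes with a mean of at least 5 CPM and groups that do not overlap. They were 4 muscle actins, Cnn1 and a set of further muscle or secreted proteins with almost no control count. Myo18b, an unconventional myosin of muscle, went from 0 counts to 80.9, 76.2 and 79.8 CPM (at least 2203-fold), and Pdlim3, a Z-disc PDZ-LIM protein that binds alpha-actinin, from 0 to 59.3, 57.2 and 60.8 CPM (at least 1650.05-fold). Jph2, a junctophilin that ties the sarcoplasmic reticulum to the cell membrane, had 1 control count and reached 83.2, 81.00 and 86.01 CPM, a ratio of 6988-fold (exact 95% counting interval 1254 to 276071). Each of these was silent or nearly so in all 3 control libraries. Optc, which encodes the small leucine-rich proteoglycan opticin, went from 0 to 26.3, 26.3 and 28.6 CPM (at least 757-fold) and Edn2, the vasoconstrictor peptide endothelin 2, from 0 to 22.7, 22.9 and 23.5 CPM (at least 645-fold).

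Myosin II and its regulators supply the force on actin filaments. Of 20 tested, 15 rose and 2 fell, with a median log2 ratio of 0.61. Myl9, the regulatory light chain of smooth muscle and stress fibre myosin, went from 0.153, 0.0321 and 0.414 to 331, 325 and 334 CPM (log2 ratio 10.72 ± 0.11, adjusted p = 1.5e-28, and 11.80 without control replicate 3), so that 1 control library had several times the level of another but all stayed below the caMKL1 libraries. Mylk, the light chain kinase, rose 7.32-fold from 19.7 ± 1.69 CPM to 145 ± 3.44 CPM, and the opposing phosphatase subunit Ppp1r12b rose 4.602-fold (adjusted p = 1.1e-23 and 5.5e-24). The essential light chain Myl6 rose 4.53-fold, and Rnd3, an antagonist of RhoA signalling, 6.44-fold from 52.04 to 335 CPM. Rhoa was at 379.9 ± 5.09 CPM and 387 ± 8.46 CPM (log2 ratio 0.03, adjusted p = 0.4, and -0.16 under library totals), and Myh10, the non-muscle myosin IIB heavy chain, changed by a log2 ratio of -0.08 (adjusted p = 0.0067). These were chosen after their values were seen.

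The list of MRTF-SRF cytoskeletal targets, which overlaps the muscle lists, had 44 of 45 tested members higher and 0 lower, with a median log2 ratio of 1.98, and 33 members at least doubled. The exception was Tgfb1i1 at under 1 CPM (adjusted p = 0.2), named after its values were seen. Under library totals 43 members were higher and 1 lower. Csrp1, a LIM protein of actin bundles, went from 115 ± 4.02 CPM to 2487 ± 63.9 CPM (log2 ratio 4.43 ± 0.032, adjusted p = 4.8e-31). Tpm1, a tropomyosin that coats actin filaments, rose 11.4-fold to 6309.9 ± 67.7 CPM (adjusted p = 7.4e-30).

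Genes of actin assembly and turnover moved less and in both directions: 29 of 46 rose and 14 fell (23 and 17 under library totals), with a median log2 ratio of 0.28. Dstn, the actin-depolymerising factor destrin, rose 9.46-fold from 197 ± 5.19 CPM to 1869 ± 2.18 CPM (adjusted p = 2.0e-29). Tmsb4x, the monomer-binding thymosin beta-4, rose 4.79-fold, Gsn, the severing protein gelsolin, 3.74-fold, Cfl2, the muscle cofilin, 3.24-fold and Arpc5, an Arp2/3 subunit, 3.78-fold. The ubiquitous cofilin gene Cfl1, named after its values were seen, had a log2 ratio of 0.10 (adjusted p = 0.0019; -0.09 under library totals), against 1.70 for its muscle form. Of the genes that fell, Fmnl3, a formin, went from 109.5 to 35.2 CPM and Cttn, cortactin, from 309 to 168 CPM (adjusted p = 3.6e-20 and 1.4e-18). Both are actin regulators of the leading edge and were also chosen after their values were seen.

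Cell-matrix adhesion genes rose in 39 of 50 tested members and fell in 11, with a median log2 ratio of 1.08. Itga5, the alpha-5 subunit of the fibronectin receptor, went from 75.6, 72.00 and 65.2 to 1329, 1348 and 1398 CPM (log2 ratio 4.26 ± 0.046, adjusted p = 6.6e-28). Fn1, its ligand, was already at 3594 ± 138 CPM and rose 2.18-fold to 7840.0 ± 28.8 CPM (adjusted p = 3.4e-21). Every caMKL1 library lay above every control library for both. Fhl1, a LIM-domain protein of muscle, went from 0.153, 0.0642 and 0.0753 to 276, 251 and 264 CPM (log2 ratio 11.36 ± 0.11). Flna, filamin A, which links actin to integrins, rose 4.06-fold to 7560.5 CPM and Tns1, a tensin of fibrillar adhesions, 8.56-fold from 31.6 CPM.

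Integrins did not all follow. The laminin receptor subunit Itga3, at 1615 ± 65.01 CPM in control, fell 2.77-fold to 584 ± 5.36 CPM with caMKL1 (log2 ratio -1.47 ± 0.028, adjusted p = 4.5e-23). Itga6, another laminin receptor subunit, rose from 336 to 707 CPM. Per unit of gene length, Itga3 stood at 283 RPKM and Itga5 at 14.4 RPKM in control, and this order was turned round with caMKL1, at 102 and 275 RPKM. Itga1, a collagen receptor subunit, rose 4.99-fold to 286 CPM, while Itga2, another collagen receptor subunit, fell from 173 to 98.6 CPM. Itgb5 fell from 172 to 86.95 CPM and Itgb3 rose from 24.8 to 127 CPM. All passed the test, and these integrins other than Itga5 were chosen after their values were seen.

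Caveolae, flask-shaped membrane pits that flatten under tension, had 7 of 9 tested coat genes higher and 1 lower, with a median log2 ratio of 1.29. Cav1, the coat protein caveolin-1, went from 47.7, 49.6 and 47.4 to 376, 357 and 361 CPM (log2 ratio 2.92 ± 0.035, adjusted p = 5.3e-27). Cavin1 and Cavin2, which stabilise the coat, rose 3.22-fold to 1036 CPM and 6.29-fold to 374 CPM. Ehd2, an ATPase at the neck of caveolae, went the other way, from 272 ± 6.29 CPM to 118 ± 1.996 CPM (adjusted p = 1.7e-20). Of 9 channels that sense membrane stretch or lie at stress fibres, 5 rose and 3 fell (3 and 5 under library totals). Trpv2, a calcium-permeable channel, rose 28.3-fold from 2.51 to 70.99 CPM and Piezo1 rose 1.75-fold. Kcnk2, the stretch-gated potassium channel TREK-1 and one of the 10 largest falls, went from 23.2, 22.96 and 23.5 to 2.14, 1.73 and 1.55 CPM (log2 ratio -3.69 ± 0.10, adjusted p = 1.0e-19).

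The matrix genes rose in 30 and fell in 16 of 48 tested members (28 and 17 under library totals). Their median log2 ratio was 0.46. Tnc, tenascin-C, a glycoprotein of wound and tumour stroma, went from 61.6, 66.6 and 61.2 to 530.1, 523 and 533 CPM (log2 ratio 3.06 ± 0.034, adjusted p = 9.7e-28). Sparc, a collagen-binding glycoprotein, rose 2.88-fold to 1026 CPM, Col12a1 5.66-fold to 152 CPM and Col5a1 2.93-fold to 563 CPM. Spp1, osteopontin, went from 402, 415 and 438 to 104, 96.7 and 97.3 CPM, a 4.21-fold fall (adjusted p = 1.3e-23). Of the fibrillar collagens that mark fibroblasts, Col1a1 rose from 3.04 ± 0.356 CPM to 6.73 ± 0.542 CPM (log2 ratio 1.14, adjusted p = 5.7e-08). Col1a2 rose from 7 to 46 counts (adjusted p = 5.1e-05), and Col3a1, below the filter, had 0 control counts and 14 caMKL1 counts. The fibroblast markers as a list did not rise: of 6 tested, 2 rose and 3 fell (2 and 4 under library totals). Their median log2 ratio was -0.11.

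Secreted and membrane metalloproteases changed in both directions. Of 33 tested members of the MMP, ADAM, ADAMTS and TIMP families 18 rose and 10 fell (15 and 11 under library totals), which is 54.5% and 30.3% against 36.2% and 35.8% of all genes, with a median log2 ratio of 0.31. Adamts9, a proteoglycan-cleaving protease (chr6:92772699-92943492 on the minus strand), had the largest fall under the same rule of level and overlap, from 15.3, 15.3 and 15.2 CPM to 0.133, 0.258 and 0.286 CPM, 1277 counts against 17 over the 3 libraries (log2 ratio -6.02 ± 0.17, adjusted p = 7.5e-20). Other proteoglycan-cleaving members did the reverse: Adamts5 rose from 3.78, 4.14 and 3.35 to 74.04, 74.4 and 72.3 CPM (log2 ratio 4.28 ± 0.070, adjusted p = 2.2e-24) and Adamts1 from 56.04, 56.3 and 57.3 to 295, 308 and 349.9 CPM (log2 ratio 2.49, adjusted p = 1.5e-22). In each of these the control and caMKL1 libraries did not overlap.

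Mmp9, the gelatinase of basement membrane breakdown (chr2:164940780-164955850 on the plus strand), fell 13.2-fold, from 245, 244 and 247 to 19.8, 17.8 and 18.5 CPM (log2 ratio -3.72 ± 0.043, adjusted p = 2.1e-27). The stromelysin genes Mmp3 and Mmp10 fell with it, from 48.4 to 5.55 CPM and from 9.85 to 1.099 CPM. Mmp14, the membrane-bound collagenase, rose 1.76-fold to 480.3 CPM, and Adam8 rose 4.91-fold to 139 CPM. Mmp10 and Mmp14 were chosen after their values were seen. Of 12 tested members of the plasminogen and coagulation system 5 were higher and 6 lower (5 and 7 under library totals), shares near the 36.2% and 35.8% of all genes. Plau, the protease urokinase, which activates plasminogen, rose from 269.6, 265 and 278 to 596, 569.9 and 619.6 CPM (log2 ratio 1.13 ± 0.031, adjusted p = 5.8e-20), and Plaur, the urokinase receptor, from 47.9 to 201 CPM (adjusted p = 3.0e-22). The protease inhibitor gene Serpine2 fell to 0.246 CPM from 7.04 CPM (log2 ratio -4.75, adjusted p = 7.9e-15, and -5.51 without caMKL1 replicate 2). Tissue factor, F3, rose 7.35-fold and the protease-activated receptor F2rl1 fell 6.59-fold.

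YAP and TEAD targets and Hippo pathway genes were higher in 21 and lower in 11 of 35 tested members (20 and 14 under library totals). Their median log2 ratio was 0.43. Ccn1, a matricellular target of both YAP and SRF, went from 124 ± 4.06 CPM to 1190.0 ± 33.1 CPM (log2 ratio 3.27 ± 0.034, adjusted p = 3.8e-28), and Ankrd1 from 199 ± 11.2 CPM to 1369.8 ± 36.8 CPM (log2 ratio 2.79). Axl, a receptor tyrosine kinase often counted among YAP targets, went from 1089, 1022 and 1025 to 466, 483 and 485 CPM, a 2.19-fold fall (adjusted p = 9.8e-21). Ankrd1, like Ccn1, is known as a target of both factors.

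Immediate early genes are the classical targets of SRF with the ternary complex factors. Of 28 tested, 17 rose and 9 fell (14 and 9 under library totals). That is 60.7% and 32.1%, against 36.2% and 35.8% of all genes. Egr1, a zinc finger transcription factor induced by growth factor signals, was at 155, 147 and 203 CPM in control and 12.99, 12.9 and 13.02 CPM in caMKL1 libraries, a 12.98-fold fall (log2 ratio -3.70 ± 0.10, adjusted p = 8.2e-20). Control libraries varied between each other, and all stood far above the caMKL1 libraries. Fosl1, a Fos family member named after its values were seen, fell from 14.6 to 2.65 CPM (adjusted p = 8.5e-15), while its relative Fosl2 rose 4.58-fold to 412 CPM (adjusted p = 6.4e-24). Jun rose 3.58-fold to 212 ± 9.05 CPM, Atf3 6.08-fold to 131 ± 9.33 CPM and the mRNA decay factor Zfp36 3.86-fold to 51.9 ± 3.602 CPM. Fos was low in both groups, at 4.33 ± 0.916 CPM and 5.56 ± 0.7404 CPM (adjusted p = 0.039), a difference that did not pass without control replicate 2 (adjusted p = 0.287), without caMKL1 replicate 1 (0.182) or under library totals (0.295). It did not pass with DESeq2 either (adjusted p = 0.0557).

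Dual-specificity phosphatases and Sprouty proteins damp the ERK pathway that induces them. Of 17 tested, 11 fell and 6 rose, with a median log2 ratio of -0.51. Dusp6, the ERK-specific phosphatase, went from 135, 126 and 124 to 28.4, 26.8 and 27.9 CPM (log2 ratio -2.21 ± 0.049, adjusted p = 7.0e-22). Spry1, which restrains receptor tyrosine kinases, went from 74.8, 66.2 and 83.8 to 17.6, 17.1 and 18.3 CPM (log2 ratio -2.08 ± 0.078, adjusted p = 2.9e-17), and Spred1, a Ras inhibitor, from 175 to 62.1 CPM. The groups were apart for all of them. Dusp1, a nuclear phosphatase of stress-activated kinases, rose instead, from 9.29, 8.32 and 10.02 to 125, 123 and 128 CPM (log2 ratio 3.77 ± 0.064, adjusted p = 4.3e-24).

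Of 10 tested ligands and receptors of the EGF family 4 rose and 5 fell, shares near the 36.2% and 35.8% of all genes. The ligand genes Hbegf and Tgfa fell from 86.8 to 30.6 CPM and from 86.7 to 35.1 CPM (adjusted p = 2.1e-18 and 2.4e-18). Erbb2 and Erbb3 fell by 0.86 and 1.18 on the log2 scale, whereas Egfr rose 1.98-fold from 14.2 to 28.1 CPM (adjusted p = 1.8e-12). TGF-beta pathway genes showed 16 of 31 higher and 14 lower (10 and 15 under library totals), or 51.6% and 45.2% against the same shares of all genes. The ligand Tgfb2 rose 6.02-fold to 176 ± 2.52 CPM, its mediator Smad3 fell 3.82-fold to 54.8 ± 1.16 CPM, and Fst, the activin antagonist follistatin, rose from 0.971 to 21.8 CPM (adjusted p = 9.0e-24, 1.7e-22 and 2.6e-19).

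**Figure D3:**
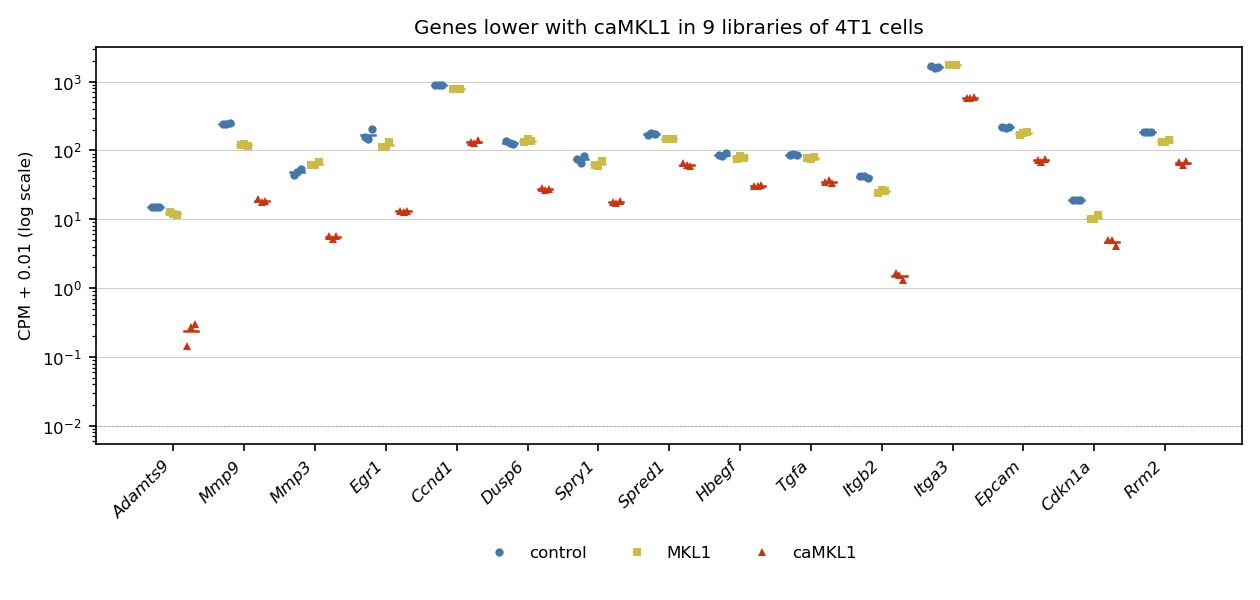
CPM + 0.01 on a log axis for 15 genes lower with caMKL1, in each of the 3 control (circles), 3 MKL1 (squares) and 3 caMKL1 libraries (triangles), with bars at the group means. The caMKL1 libraries lie below the control libraries for each gene, by the widest margin for Adamts9 and by the narrowest for Spred1, Itga3, Hbegf, Tgfa and Rrm2.

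Most epithelial markers did not fall in the libraries in which the muscle genes rose. Whether the same cells carried both sets of transcripts cannot be told from bulk RNA. Of 12 epithelial markers 9 rose and 2 fell, and of 40 junction and keratin genes 25 rose and 11 fell, with a median log2 ratio of 0.67. Krt8 and Krt19, keratins of simple epithelium, went from 505 ± 8.73 CPM to 1709 ± 31.5 CPM and from 54.6 ± 1.83 CPM to 367 ± 7.86 CPM (adjusted p = 3.0e-25 and 3.8e-25), and Krt14, a basal keratin found in myoepithelium, from 21.2 ± 1.04 CPM to 158 ± 2.57 CPM (adjusted p = 9.4e-25). The splicing factor of epithelial isoforms, Esrp1, rose 3.13-fold to 95.8 CPM, and Dsp, the desmosome protein desmoplakin, 2.96-fold to 555 CPM. Cdh1, E-cadherin, was at 677, 658 and 675 CPM in control and 876, 922 and 940.4 CPM in caMKL1 libraries (log2 ratio 0.45 ± 0.029, adjusted p = 1.5e-12). Epcam ran against these, with 219.7, 209 and 222 CPM in control and 71.5, 68.1 and 75.7 CPM in caMKL1 libraries (log2 ratio -1.60 ± 0.043, adjusted p = 4.8e-20), and Grhl2, an epithelial transcription factor, fell from 41.9 to 23.5 CPM.

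Genes of epithelial-mesenchymal transition rose in 8 and fell in 8 of 17 tested members (7 and 8 under library totals). That is 47.1% each way, against 36.2% higher and 35.8% lower among all genes. Vim, vimentin, was at 1508 ± 10.1 CPM in control and 1900.3 ± 12.98 CPM with caMKL1 (log2 ratio 0.33, adjusted p = 5.1e-12), and the transcription factor gene Zeb2 rose by 0.39 on the log2 scale to 103 CPM. Twist1, another inducer of the transition, named after its values were seen, fell from 19.1 to 11.8 CPM (adjusted p = 7.6e-08). The fibroblast receptor gene Pdgfrb fell from 1.53 to 0.135 CPM.

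Cell cycle genes were mostly lower. Of 39 genes of DNA replication and nucleotide synthesis 35 fell and 3 rose, with a median log2 ratio of -0.70. Rrm2, the ribonucleotide reductase subunit that limits nucleotide supply, went from 183, 187 and 184 to 67.7, 62.3 and 69.9 CPM (log2 ratio -1.47 ± 0.041, adjusted p = 6.4e-20), and Uhrf1, which keeps DNA methylation in place at replication, from 274 ± 4.97 CPM to 97.2 ± 2.07 CPM. Mcm5, of the replicative helicase, fell 2.22-fold. Mitotic genes fell in 25 and rose in 4 of 34 tested members, by less, with a median log2 ratio of -0.39. Top2a, topoisomerase II alpha, went from 1171 ± 48.8 CPM to 559.8 ± 14.9 CPM and Mki67, the proliferation antigen Ki-67, from 1180.1 ± 31.1 CPM to 718 ± 7.25 CPM (adjusted p = 7.9e-20 and 8.4e-17). Under library totals 35 of 39 replication genes and 31 of 34 mitotic genes were lower, with median log2 ratios of -0.88 and -0.57.

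Among cyclins, their inhibitors and pocket proteins 14 of 24 fell and 7 rose (16 and 4 under library totals). The shares were 58.3% lower and 29.2% higher, against 35.8% and 36.2% of all genes. Ccnd1, cyclin D1, which drives entry into S phase (chr7:144929931-144939925 on the minus strand), went from 891, 879 and 883 to 134, 129.8 and 139 CPM, a 6.59-fold fall (log2 ratio -2.72 ± 0.030, adjusted p = 9.7e-28). Ccnd2 and Ccnd3 stood at 297 ± 5.08 CPM and 47.3 ± 1.92 CPM with caMKL1 against 251 ± 8.12 CPM and 43.1 ± 3.31 CPM in control, small differences of which that of Ccnd3 changed sign under library totals and failed the test without control replicate 2, control replicate 3 or caMKL1 replicate 2. Per unit of gene length, Ccnd1 went from 188 to 28.5 RPKM and Ccnd2 from 26.6 to 31.6 RPKM, so that the gap between these cyclins closed. Ccnd2 and Ccnd3 were chosen after their values were seen. The inhibitor gene Cdkn1b (p27) rose 1.76-fold to 207 ± 6.45 CPM, while Cdkn1a (p21) fell 4.02-fold, from 18.8, 18.8 and 18.9 to 5.03, 4.91 and 4.12 CPM (log2 ratio -2.01 ± 0.090, adjusted p = 1.0e-15). Of 22 p53 target genes 15 rose (68.2%) and 5 fell (22.7%), Cdkn1a among the latter, with a median log2 ratio of 0.43. Under library totals 14 rose and 7 fell. Membership of this list does not show p53 activity, and the cause of these changes was not tested. Fas, a death receptor, rose 4.67-fold to 38.8 CPM, and Pmaip1, the pro-apoptotic BH3 protein Noxa, named after its values were seen, had no control count and was at least 239-fold higher at 10.1, 8.41 and 7.26 CPM.

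Transcripts of the translation and respiration machinery shifted by small amounts, the nuclear-encoded lists each mostly in 1 direction. Of 44 cytosolic ribosomal protein genes 38 fell and 1 rose, with a median log2 ratio of -0.34, and under library totals 43 fell and 0 rose. Rpsa went from 1700.01 ± 23.8 CPM to 1156 ± 22.5 CPM and Rps19 from 229 ± 6.79 CPM to 129.9 ± 5.03 CPM (adjusted p = 1.1e-15 and 2.1e-16). These genes have many processed pseudogenes that can share reads with them. Nuclear-encoded genes of oxidative phosphorylation rose in 33 and fell in 1 of 40 tested members, with a median log2 ratio of 0.43, and in 28 and 7 under library totals. Ndufa4 rose 2.09-fold to 160.5 ± 4.99 CPM, and only this member rose at least 2-fold. Of 13 mitochondrially encoded messages, 1 rose, 7 fell and 5 did not pass the test, with a median log2 ratio of -0.21. Under library totals 12 fell and 0 rose. On the TMM scale their summed level overlapped between the groups, at 25748 to 26646 CPM in control and 26017 to 26741 CPM with caMKL1. mt-Co3 had a log2 ratio of -0.69 and mt-Co1, the member that rose, one of 0.20 (adjusted p = 1.0e-06 and 6.0e-07), the latter 0.02 and not past the test under library totals. Nuclear copies of mitochondrial genes can share reads with these.

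Stress response genes rose in 22 and fell in 6 of 31 tested members (18 and 8 under library totals). Their median log2 ratio was 0.34. Ppp1r15a (GADD34), which restores translation after stress, went from 22.1 ± 3.33 CPM to 163 ± 5.88 CPM, and Edem1, of endoplasmic reticulum-associated degradation, from 102 ± 1.59 CPM to 366 ± 12.9 CPM (adjusted p = 4.4e-19 and 1.6e-23). Hspa5 (BiP), named after its values were seen, rose 1.301-fold. Glycolysis and hypoxia genes divided 20 higher to 15 lower of 36 (18 and 16 under library totals), or 55.6% and 41.7%. Among all genes 36.2% rose and 35.8% fell. Ndrg1 was up 3.49-fold to 983 CPM and Pkm up 1.62-fold to 3064 CPM. Of 27 cholesterol genes 15 were lower and 7 higher (17 and 5 under library totals), or 55.6% and 25.9%. The cholesterol efflux pump gene Abca1 rose from 0.467 to 9.38 CPM.

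Immune genes separated by class. Of 23 genes of MHC class I presentation 20 rose and 1 fell, with a median log2 ratio of 0.78. B2m, the light chain of class I molecules, went from 600.3, 574 and 604 to 1834, 1952 and 1911 CPM (log2 ratio 1.68 ± 0.031, adjusted p = 1.9e-23), Nlrc5, the transactivator of class I genes, from 60.3 ± 0.534 CPM to 239 ± 4.63 CPM and Tap1, the peptide transporter, from 42.6 ± 2.41 CPM to 115 ± 1.404 CPM. The heavy chain genes H2-D1 and H2-K1 rose 1.95-fold and 2.03-fold, with the caution that class I heavy chain genes are similar enough to share reads. H2-K1 and Tap1 were chosen after their values were seen. Interferon-stimulated genes rose in 25 and fell in 9 of 41 members (23 and 11 under library totals), with a median log2 ratio of 0.45. Ifit2 went from 44.3 ± 0.647 CPM to 357 ± 12.1 CPM (log2 ratio 3.01, adjusted p = 4.0e-23).

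Chemokines, cytokines and NF-kB feedback genes were lower in 21 and higher in 13 of 37 members, with a median log2 ratio of -0.35. That is 56.8% lower and 35.1% higher, against 35.8% and 36.2% of all genes. The counts were 23 lower and 11 higher under library totals. Ptgs2 (COX-2), the inducible prostaglandin synthase, went from 185 ± 11.1 CPM to 802 ± 60.3 CPM and Csf3 (G-CSF), the neutrophil growth factor, from 16.01 ± 0.959 CPM to 78.8 ± 0.926 CPM (adjusted p = 1.8e-20 and 1.3e-20). The chemokine Cx3cl1 fell from 85.3 ± 3.10 CPM to 21.8 ± 0.276 CPM, and Vcam1, a leukocyte adhesion receptor, from 145 ± 4.98 CPM to 43.8 ± 1.74 CPM (adjusted p = 1.8e-21 and 9.7e-21).

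**Figure D4:**
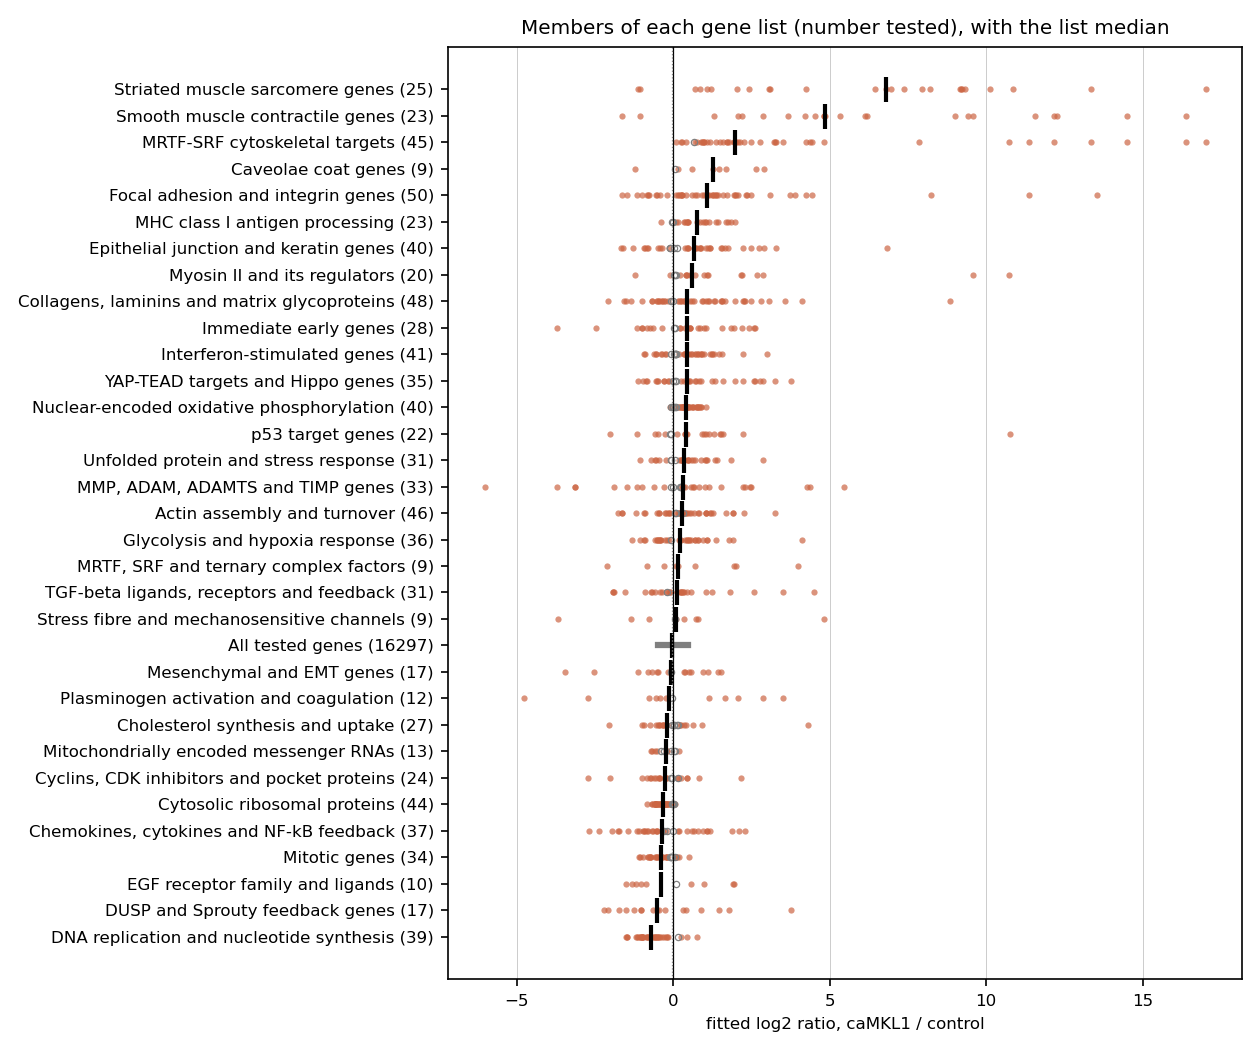
Fitted log2 ratio of caMKL1 over control for the tested members of 32 gene lists, ordered by list median (black bar), with filled points for members past the test and open points for the rest; the row of all tested genes shows the quartile range as a bar. The muscle lists sit furthest to the right and the DNA replication list furthest to the left, and most other lists spread to both sides of 0.

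The remaining falls among the 10 largest were of several kinds. Angptl4, an inhibitor of lipoprotein lipase, went from 11.4, 9.86 and 8.47 to 0.08899, 0.148 and 0.449 CPM (log2 ratio -5.40 ± 0.24, adjusted p = 7.6e-16, and -6.29 without caMKL1 replicate 3). Itgb2, the leukocyte integrin beta chain, was at 42.1, 42.8 and 39.3 CPM in control and 1.65, 1.55 and 1.31 CPM with caMKL1 (log2 ratio -4.78 ± 0.10, adjusted p = 1.3e-22), and Irf8, a transcription factor of myeloid cells, at 14.2, 13.04 and 15.6 and 0.623, 0.996 and 0.5305 CPM (log2 ratio -4.28, adjusted p = 2.1e-17). Both are best known from blood cells. Of the leukocyte markers, Ptprc and Itgam had 2 and 1 counts in all in the control libraries, Csf1r had 28 counts and Cd68 was at 6.25 CPM, and the part of leukocytes in these values was not tested. Slc4a4, a sodium bicarbonate cotransporter, fell 27.3-fold to 0.891 ± 0.435 CPM, Sox5, a transcription factor, 14.2-fold to 0.6898 ± 0.0242 CPM and Ubqln2, an adaptor of protein degradation, 11.1-fold to 2.17 ± 0.531 CPM, with no overlap between the groups.

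To see where the constitutively active form differed from the MKL1 overexpression, caMKL1 libraries were compared directly with MKL1 libraries. At an adjusted p under 0.05, 5505 genes (33.8%) were higher and 5353 (32.8%) lower with caMKL1, and under library totals 4534 and 6690. MKL1 and caMKL1 share their control libraries, so their levels are given side by side. Acta2 stood at 400.3 ± 1.61 CPM with MKL1 and 9423 ± 276 CPM with caMKL1, 23.5-fold higher with caMKL1 (log2 ratio 4.56 ± 0.03 SE, adjusted p = 2.5e-30). Cnn1 was at 2.59 ± 0.252 CPM with MKL1, so its level with caMKL1 was 306-fold higher, and for Myh11, at 1.297 ± 0.2803 CPM with MKL1, it was 144-fold higher (adjusted p = 1.3e-32 and 1.1e-27). Muscle actins made up 10.01 ± 0.075% of the length-scaled actin sum with MKL1, between the control and caMKL1 values.

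Of 23 smooth muscle genes 21 were higher with caMKL1 than with MKL1 and 2 lower, and of 45 MRTF-SRF targets 39 were higher and 3 lower. Interferon-stimulated genes were the other way round, with 6 of 41 higher and 32 lower with caMKL1 than with MKL1 (median log2 ratio -0.55, against -0.01 for all genes). Gbp2, for example, had 30.01 ± 1.07 CPM in control, 93.2 ± 4.43 CPM with MKL1 and 74.96 ± 1.41 CPM with caMKL1. Mitotic genes were lower in 23 and higher in 7 of 34, and DNA replication genes lower in 32 and higher in 4 of 39.

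The 4 largest excesses over MKL1 were of Prelp, Slc8a2, Actc1 and Edn2. Prelp, a leucine-rich matrix protein, was at 0, 0.282 and 0.183 CPM with MKL1 and 139.7, 139.8 and 133 CPM with caMKL1 (log2 ratio 9.72 ± 0.13, adjusted p = 1.9e-25, and 10.51 without MKL1 replicate 2). Slc8a2, a sodium-calcium exchanger, had 2 counts over the MKL1 libraries and reached 17.9 ± 1.695 CPM, a ratio of 622-fold (exact 95% counting interval 172 to 5145). Actc1 was 518-fold and Edn2 370.2-fold higher than with MKL1 (adjusted p = 1.4e-28 and 1.5e-19). The 4 largest deficits were of Adamts9, Slc4a4, Itgb2 and Sox5, which are also among the largest falls from control. Adamts9 was at 12.9, 12.1 and 11.6 CPM with MKL1 and 0.133, 0.258 and 0.286 CPM with caMKL1 (log2 ratio -5.70 ± 0.18, adjusted p = 1.0e-18), and Itgb2 at 24.01, 26.9 and 25.4 CPM with MKL1 and 1.65, 1.55 and 1.31 CPM with caMKL1. For Adamts9 the MKL1 libraries lay much closer to the control libraries than to the caMKL1 libraries. For Itgb2 they lay between, below all control and above all caMKL1 libraries.

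LM2 cells were another line with the same pair of groups. The change with caMKL1 in 4T1 was tested against that in LM2 as an interaction over 13040 genes with the same symbol in both species, where line and species cannot be told apart. The signed log2 ratio was higher in 4T1 for 4181 genes (32.1%) and lower for 4021 (30.8%), and under library totals for 5697 and 2711. A gene that fell less in 4T1 than in LM2 thus counts as higher in 4T1. Among the LM2 libraries caMKL1 replicate 1 stood apart from the other caMKL1 replicates. Its mean chi-square per gene was 47.1 and 51.4 against them, where those differed by 3.11. Without replicate 1 the signed log2 ratio was higher in 4T1 for 4456 genes and lower for 4210. Each gene named below from this comparison kept its sign and its side of the threshold without that replicate, and its values are given with all 3. CPM values in this fit are scaled over both lines and differ slightly from those above.

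Acta2 rose in both lines, with a log2 ratio of 14.43 in 4T1 and 11.66 in LM2 (difference 2.76 ± 0.31, adjusted p = 3.1e-07). Actg2 rose to 3293, 3284 and 3372 CPM in 4T1 and 5303, 4248 and 4204 CPM in LM2, from 3 control counts in the first and 1 in the second, and the difference did not pass the test (adjusted p = 0.35). Cnn1 and Myh11 separated the lines: CNN1 reached 6.38, 5.56 and 4.79 CPM in LM2 caMKL1 libraries from 0.957, 0.7297 and 1.28 CPM in control, and MYH11 was at 2.51, 2.15 and 2.18 CPM in control and 1.84, 2.98 and 2.57 CPM with caMKL1 (adjusted p = 0.66). Their differences between lines were 9.62 ± 0.35 and 9.44 ± 0.26 on the log2 scale (adjusted p = 8.1e-14 and 2.8e-15). Srf rose in both, by 1.89 and 2.24. Mrtfb had a log2 ratio of 0.04 in 4T1 while MRTFB had one of -1.72 in LM2 (difference 1.76 ± 0.08, adjusted p = 1.5e-12).

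Adamts9 had the largest difference with the lower response in 4T1. It went from 14.9, 15.1 and 14.9 to 0.126, 0.245 and 0.2697 CPM in 4T1, and ADAMTS9 went from 0.0912, 0.258 and 0.257 to 69.9, 74.4 and 76.2 CPM in LM2 (log2 ratios -6.07 and 8.46, difference -14.53 ± 0.23, adjusted p = 1.7e-18). The same construct label thus went with a near loss of this protease message in the mouse line and its appearance in the human line. Cxcl11, an interferon-induced chemokine, went from 3.55, 2.797 and 3.99 to 0.964, 0.596 and 1.35 CPM in 4T1 and from 0.0912, 0 and 0 to 66.3, 92.00 and 92.6 CPM in LM2 (fitted difference -13.08, and -15.81 and -12.48 without LM2 control replicates 1 and 3). Alpl, tissue-nonspecific alkaline phosphatase, fell in 4T1 to 4.74, 5.85 and 5.36 CPM and rose in LM2 from 0 counts to 9.93, 8.14 and 8.50 CPM. Tnip3, an inhibitor of NF-kB signalling, fell in 4T1 to 0.0419, 0.2103 and 0.0385 CPM and rose in LM2 from 0.365, 0.816 and 1.03 to 139, 158 and 169 CPM.

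On the other side, Psca, a prostate stem cell antigen, reached 77.9, 82.6 and 82.6 CPM in 4T1, and PSCA had 7 control counts and 0 caMKL1 counts in LM2. Vegfd, a lymphatic growth factor, rose to 23.5, 24.3 and 27.4 CPM in 4T1 and VEGFD had 25 control counts and 1 caMKL1 count in LM2. Fhl1 rose to 259.8, 238 and 249 CPM in 4T1, while FHL1 went from 45.9, 44.5 and 55.9 to 29.6, 29.9 and 28.3 CPM in LM2 (difference 12.03 ± 0.19, adjusted p = 1.7e-18). Pdlim3 rose in both lines, to 55.8, 54.4 and 57.4 and 87.6, 95.3 and 94.9 CPM, and its larger fitted ratio in 4T1 rests on a control level of 0 there. Several genes of the falls described above also differed by line, and these were chosen after their values were seen. EGR1 rose in LM2 from 20.9, 28.5 and 34.5 to 313, 326 and 349 CPM and CDKN1A from 15.04, 18.3 and 18.4 to 665, 524 and 516 CPM (differences -7.31 and -7.10, adjusted p = 2.3e-15 and 2.1e-16). FGFR2, a growth factor receptor gene, went from 6 control counts to 22.5, 24.4 and 25.6 CPM in LM2, while Fgfr2 fell in 4T1 (log2 ratios 8.02 and -2.89, adjusted p of the difference = 1.7e-18).

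The muscle genes were as uneven between the lines. ACTA1 stayed below 1 CPM in LM2, with 38 caMKL1 counts against 195713 for Acta1 in 4T1 (difference 10.42 ± 1.03, adjusted p = 6.8e-08, and 9.47 without LM2 control replicate 1), while ACTC1 reached 3702, 2483 and 2365 CPM from 1 control count, and the difference for Actc1 did not pass the test (adjusted p = 0.76). TAGLN went the other way, from 4.19, 4.34 and 3.38 to 1647, 1264 and 1297 CPM in LM2, a larger rise than that of Tagln in 4T1 (difference -3.71 ± 0.47, adjusted p = 1.5e-06). FOS rose in LM2 from 1.64, 1.97 and 1.58 to 112, 97.3 and 118 CPM, against a log2 ratio of 0.31 for Fos in 4T1 (difference -5.66 ± 0.22, adjusted p = 2.0e-13). The falls of Ccnd1, Top2a and Rrm2 were shared in direction, with log2 ratios of -2.78, -1.12 and -1.53 in 4T1 and -2.12, -2.66 and -2.57 in LM2, and Axl fell in both (-1.18 and -2.07). Tagln, Fos, Top2a, Rrm2 and Axl were chosen for this comparison after their values were seen.

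**Figure D5:**
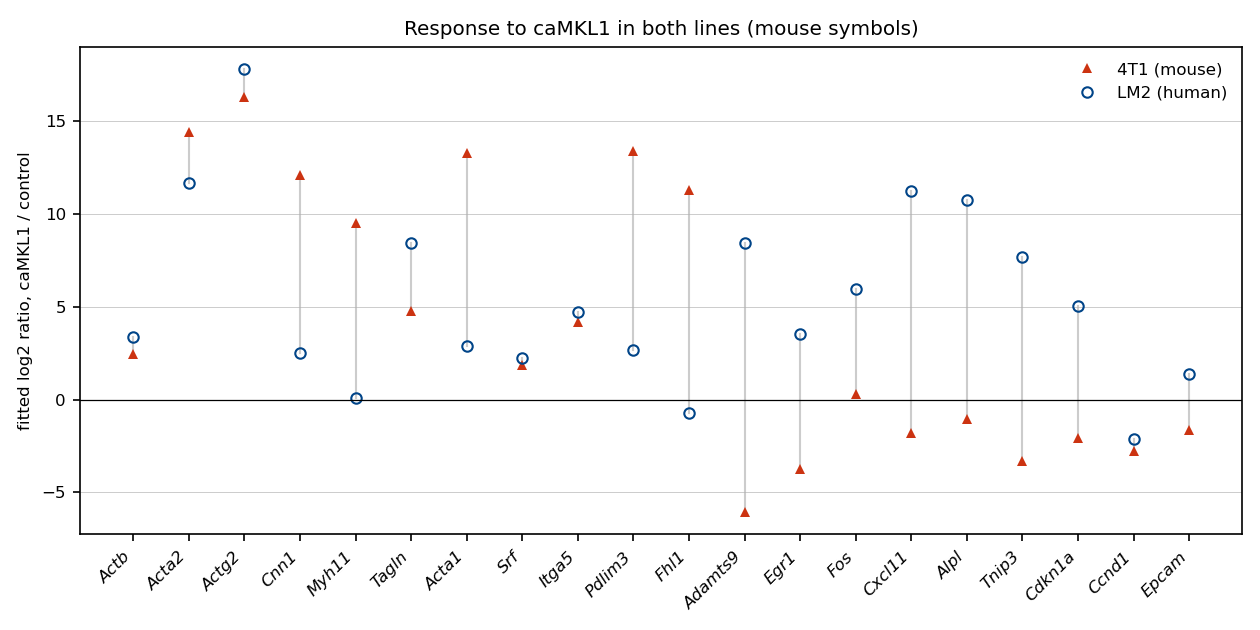
Fitted log2 ratio of caMKL1 over control for 20 genes in 4T1 (triangles) and LM2 (circles), joined by a line per gene, under the mouse symbols. The actins, Srf and Itga5 lie above 0 in both lines and Ccnd1 below 0 in both, Fhl1, Adamts9, Egr1, Cxcl11, Alpl, Tnip3, Cdkn1a and Epcam lie on opposite sides of 0, and ratios of genes with 0 to 3 control counts (Actg2, Pdlim3, Cxcl11 and Alpl) depend on the prior count.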

How the data were processed

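RNA sequencing counts per gene of 9 libraries of 4T1 cells (control, MKL1 and caMKL1, 3 each) were used, with 6 LM2 libraries for the line comparison. The deposited values are raw counts, made by the authors with featureCounts 2.0.1 on STAR alignments against Ensembl GRCm38 release 102 (GRCh38 release 103 for LM2), per the file headers and the submitters' processing notes. The command in the headers counts read pairs over exons by gene name and sets no strand or multi-mapping option, so antisense and near-identical genes are uncertain. No source used here names a version of STAR. The labels describe polyA selection.

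Counts were tested with edgeR 4.0.16 in R 4.3.3 (quasi-likelihood test, 1 mean per group, all 9 libraries in the fit, TMM scaling, filterByExpr with a minimum count of 10, prior count 0.125, Benjamini-Hochberg at 0.05 over 16297 genes). A standard error is the log2 ratio divided by the square root of F. The responses of the lines were compared by an interaction over genes whose symbols match in upper case, 13040 tested. Genes with 0 counts in a group were set to a floor of 3 counts over the group. RPKM used the gene lengths in the files. DESeq2 1.42.0, limma 3.58.1 (voom), other scalings and filters, and fits without each replicate were alternatives. Each library pair of a 4T1 group differed by more than counting noise (chi-square per gene 1.58 to 6.76). Totals of 21896459 to 29370432 counts over the 9 libraries of 4T1 cells limit precision only for genes with few counts, and intervals cover counting error only.

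The comparison and the gene lists were chosen with earlier results of these data known. Genes were named by these rules: Mrtfa, Mrtfb, Srf, Acta2, Cnn1, Myh11 and Adamts9; the 10 largest rises and falls called with a mean of at least 5 CPM and groups that do not overlap; up to 6 members of each list by smallest p, and any member of lists with up to 12 tested; and the 4 largest differences of each sign from MKL1 and from LM2. Other genes are stated as chosen after their values were seen. A list of 27 replication-dependent histone genes matched no name and was not used. No mouse sequences were used.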

Additional observations from a re-analysis of the deposited data

Results flagged for a closer look

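The change with caMKL1 in 4T1 cells differed from that in LM2 cells by a test of the difference itself for each of the following genes, given as the 4T1 minus the LM2 log2 ratio. The difference was 14.68 for Psca, 12.03 for Fhl1, 11.56 for Vegfd and 10.72 for Pdlim3, whose response was the higher in 4T1. It was -14.53 for Adamts9, -13.08 for Cxcl11, -11.78 for Alpl and -11.03 for Tnip3, whose response was the higher in LM2. Of the muscle markers it was 9.616 for Cnn1, 9.436 for Myh11 and 2.765 for Acta2. Of the regulators it was 1.76 for Mrtfb, -0.4738 for Mrtfa and -0.3556 for Srf. Under library totals the last of these were -0.11 for Mrtfa and -0.02 for Srf and did not pass the test, and that of Srf did not pass without LM2 control replicate 3 (-0.27, adjusted p = 0.0627). For Psca, Fhl1, Vegfd, Pdlim3, Cxcl11, Alpl and Tnip3 at least 1 of the 4 groups had 8 counts or fewer, so the size of the fitted difference depends in part on the prior count. It was 18.22 for Psca without 4T1 control replicate 2, 13.71 for Vegfd without LM2 caMKL1 replicate 1, -15.81 and -12.48 for Cxcl11 without LM2 control replicates 1 and 3, and -12.27 for Tnip3 without 4T1 caMKL1 replicate 2.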

How the results depend on the processing

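The 11741 genes called between caMKL1 and control became 11002 with DESeq2, 11749 with limma voom, 12922 without a low-count filter, 10714 at a minimum of 1 CPM in 3 libraries and 10429 at an adjusted p under 0.01. Without 1 replicate they numbered 11222 to 11572, those of at least 2-fold 3694 to 3806, those against MKL1 10293 to 10668, and those that differed between lines 7885 to 8666. None of these counts moved by over 1.5 times from its main value. Under library totals the calls of at least 2-fold were 1831 higher and 2041 lower, where the TMM fit gave 2178 and 1421. It is not stated whether equal replicate numbers mark a shared batch. Deviations of same-numbered control and caMKL1 libraries had correlations of -0.0366, 0.0279 and 0.1248. For replicate 3 the correlation was positive in every pair of groups, also at 0.2156 (control and MKL1) and 0.1457 (MKL1 and caMKL1). Replicate 3 correlated negatively with the other numbers of other groups (-0.0303 to -0.1411). The cause of this pattern was not tested. With a replicate block in the fit 11989 genes were called, 3604 of them at least 2-fold, with 11125 against MKL1 and 8161 between lines. Of 224 gene results with 3214 values under the alternatives, 3192 kept their sign and side of the threshold. The sign changed under library totals for Ccnd3 (-0.04591), Cfl1 (-0.08744), Elk4 (-0.02641), Mrtfb (-0.08301) and Rhoa (-0.1569), by construction of the scaling, which lowers all genes. The other 17 values lost their call: 14 were of Ccnd2, Ccnd3, Cfl1, Fos, Mrtfb and mt-Co1 against control, and 3 were of the differences between lines of Mrtfa and Srf. Depth limits the control values of genes with 0 to 3 counts, for which bounds or intervals are given.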

Other observations

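Genes outside the lists also showed large changes with caMKL1, and those described here were chosen after their values were seen. Ckmt1, a mitochondrial creatine kinase, had 3 control counts and reached 34.3, 34.8 and 35.3 CPM, a ratio of 973-fold (exact 95% counting interval 333 to 4721), beside the cytosolic muscle form Ckm of the report. Tmem45a2, a transmembrane protein, went from 1 control count to 28.9, 29.1 and 26.8 CPM and Myh13, a myosin heavy chain of extraocular muscle, from 1 count to 12.6, 9.55 and 9.51 CPM. Il1r2, the decoy receptor of interleukin 1, went from 0, 0.0963 and 0.0377 to 58.1, 51.2 and 54.1 CPM and Plac8 from 0.0382, 0.0963 and 0.0753 to 47.4, 47.8 and 47.7 CPM (adjusted p = 9.8e-24 and 5.6e-24). All 3 caMKL1 libraries stood far above all 3 control libraries for each of these.

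The transcription factor genes Etv1 and Etv4 fell from 137 ± 4.61 CPM to 22.2 ± 1.34 CPM and from 86.8 ± 3.05 CPM to 13.6 ± 0.777 CPM, and Spry4, of the Sprouty list above, from 10.5 ± 0.453 CPM to 3.18 ± 0.466 CPM (adjusted p = 6.2e-24, 8.2e-23 and 2.2e-12). The receptor gene Fgfr2 fell from 158, 155 and 165 to 22.3, 22.4 and 22.2 CPM (log2 ratio -2.84, adjusted p = 3.5e-24). Kank3, of a family of proteins at the rim of focal adhesions, fell 8.33-fold to 12.7 ± 0.8798 CPM, and Ablim1, an actin-binding LIM protein, 6.02-fold to 34.2 ± 2.24 CPM, both against the rise of most adhesion and actin genes. In LM2 cells ABLIM1 rose, from 251, 262 and 265 to 1473, 1569 and 1573 CPM (difference of log2 ratios -5.22 ± 0.09, adjusted p = 2.4e-18).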
